A study of Mus musculus with 4 samples.

Results

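The glycolytic enzymes described here are the products of 7 genes: Hk1, Gpi1, Pfkp, Pgam1, Eno1, Pkm and Ldha. They were found by symbol from a list of 10 glycolysis genes, and they are 7 of the 6940 genes in the table that was analysed. The other list members, Hk2, Pfkl and Pgk1, were not analysed here. Messenger RNA was sequenced from oligodendrocytes, the myelin-forming cells of the central nervous system, in 4 libraries, 2 for each genotype. Control cells had the genotype Zdhhc5fl/fl, in which the gene is flanked by recombination sites but intact. Cells of the conditional knockout, called cKO, had the genotype Olig1cre/+;Zdhhc5fl/fl, so that Cre recombinase made from the Olig1 locus deletes Zdhhc5 in the oligodendrocyte lineage. All cells came from cortex of C57BL/6 mice at postnatal day 5, were selected with antibodies against GalC and O4, were kept in growth medium for 6 days and were collected 24 h after a switch to medium with 40 ng/mL triiodothyronine, a thyroid hormone that starts their differentiation. Both genotypes carry the floxed alleles and only the cKO carries Cre in Olig1, so effects of Cre, of the altered Olig1 locus and of the loss of Zdhhc5 cannot be told apart.

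Glycolysis splits glucose into pyruvate in the cytosol and yields ATP and NADH. Hexokinase traps glucose as its 6-phosphate, phosphofructokinase commits it to the pathway, and the later enzymes, from aldolase to pyruvate kinase, recover ATP. Lactate dehydrogenase turns pyruvate into lactate and restores NAD+. Oligodendrocytes are known for active glycolysis, and lactate that they export can serve axons as fuel.

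The 6940 listed genes held 13672254 to 20068016 recovered reads per library. All of them had been called by the authors (the authors' deposited adjusted p reached 0.0499 at most), which is 40.0% of the 17347 genes behind the authors' adjustment. A call of one of these genes in the same libraries is therefore a description and no independent evidence. Whether libraries of a genotype came from separate animals or cultures is not stated, so the spread between them may be technical. The deleted gene was not analysed here and the genotype labels were not checked by it. Of 14 markers of myelin and differentiated oligodendrocytes 12 were listed, and they took 2.39% and 2.4% of the listed reads in the controls but 0.549% and 0.574% in the cKO libraries. Astrocyte markers, 9 of 10 listed, took 2.85% in each control and 4.47% and 4.48% in the cKO libraries, more than the myelin markers in both genotypes.

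All 7 enzymes had more mRNA in the cKO cells. The rise was 1.68-fold for Pfkp (phosphofructokinase), 1.37-fold for Hk1 (hexokinase) and 1.32-fold for Eno1 (enolase). Pkm, Gpi1 and Pgam1 rose between 1.21-fold and 1.28-fold, and Ldha, a lactate dehydrogenase subunit, rose 1.10-fold. In sum the 7 genes had 67077 and 67232 normalised reads (reads divided by the authors' size factor of the library) in controls 1 and 2, and 86769 and 83407 in cKO 1 and cKO 2, which is 1.27-fold more. Their share of the listed reads went from 0.393% and 0.394% to 0.53% and 0.514%. Each of the 7 passed in limma, as did 100% of the listed genes, with 46.7% of the listed genes higher in the cKO and 53.3% lower. The genotypes did not overlap for any of the 7, and the cKO pair was on top in 46.7% of listed genes and at the bottom in 53.3%. The median log2 fold change was 0.35 over the 7 members, -0.22 over all listed genes and 0.47 over the listed genes that were higher. Of the 10 genes first named 70.0% were listed, beside 40.0% of all genes behind the adjustment, of which 18.7% were higher and 21.3% lower. The change between genotypes followed the GC content of transcripts over the whole table, and after GC adjustment (subtraction, in each library, of a smooth trend of the deviations from gene means with GC content, keeping its median) 2 of the 7, Hk1 and Pfkp, still passed.

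**Figure D1:**
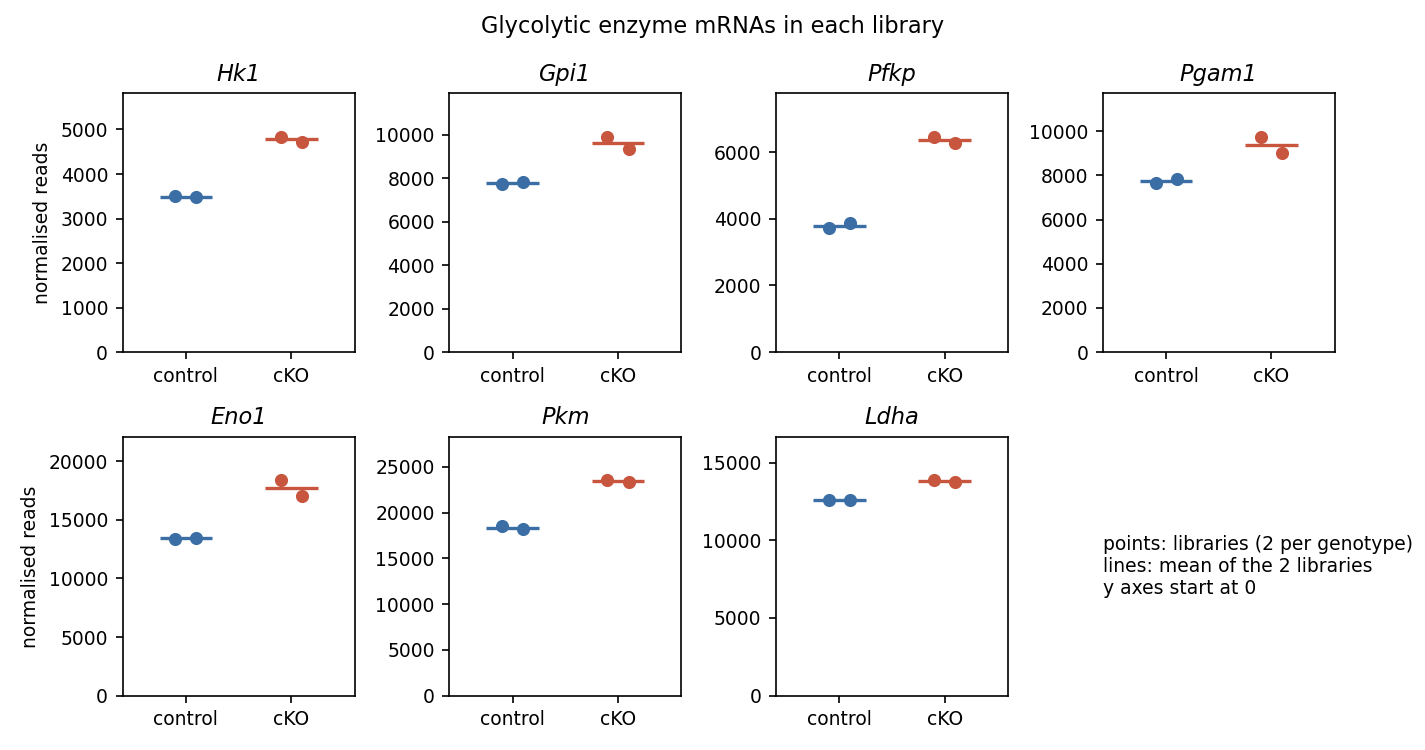
Normalised reads (vertical axes, from 0) of the 7 glycolytic enzyme genes in the 2 control and 2 cKO libraries, with 1 point per library and a line at the mean. The cKO points lie above the control points in every panel, with the widest gap for Pfkp (1.68-fold) and the narrowest for Ldha (1.10-fold).

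The windows of 250 bases before the start of the 4 genes with the highest folds are shown because these 4 led the list by fold. Capitals mark ACGTG or GCGTG on either strand, the letters at the core of the hypoxia response element. Sequences are from RefSeq on GRCm38.p6, written 5′ to 3′ on the gene's strand, and each is taken at the most upstream start the RefSeq table gives for the gene. The table gives 2 starts for Hk1 and Pkm and 3 for Eno1, and these data do not show which was used. The windows are chr10:62379909-62380158 (minus strand) for Hk1, chr13:6648772-6649021 (minus strand) for Pfkp, chr4:150236458-150236707 (plus strand) for Eno1 and chr9:59656326-59656575 (plus strand) for Pkm.
Hk1: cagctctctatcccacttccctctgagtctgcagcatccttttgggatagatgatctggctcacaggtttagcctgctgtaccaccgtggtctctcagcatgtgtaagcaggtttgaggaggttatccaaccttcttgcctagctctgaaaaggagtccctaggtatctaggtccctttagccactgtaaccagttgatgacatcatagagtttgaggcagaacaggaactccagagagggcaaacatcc
Pfkp: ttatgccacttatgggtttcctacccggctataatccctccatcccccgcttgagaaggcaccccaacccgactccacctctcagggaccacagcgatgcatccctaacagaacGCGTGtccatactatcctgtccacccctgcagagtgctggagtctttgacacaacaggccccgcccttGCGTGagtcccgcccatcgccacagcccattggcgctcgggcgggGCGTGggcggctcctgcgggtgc
Eno1: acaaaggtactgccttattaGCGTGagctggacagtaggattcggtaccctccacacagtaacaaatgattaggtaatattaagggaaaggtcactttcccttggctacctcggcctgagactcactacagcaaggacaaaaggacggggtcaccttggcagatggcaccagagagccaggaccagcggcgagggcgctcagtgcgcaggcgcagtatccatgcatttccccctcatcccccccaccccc
Pkm: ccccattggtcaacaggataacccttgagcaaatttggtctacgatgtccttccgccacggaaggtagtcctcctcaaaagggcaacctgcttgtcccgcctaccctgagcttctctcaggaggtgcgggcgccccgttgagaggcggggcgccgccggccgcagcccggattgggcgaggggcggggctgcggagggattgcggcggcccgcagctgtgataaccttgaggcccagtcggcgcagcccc

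Among these windows that of Pfkp, the gene with the highest fold, held 3 matches to GCGTG and that of Eno1 held 1, while those of Hk1 and Pkm held neither. Of the 7 members 4 had a match to either, the others being Pgam1 with 1 ACGTG and 2 GCGTG and Ldha with 5 ACGTG. Either motif was present in 38.6% of 27025 windows of the same length, 1 per gene. In Ldha 2 copies of CACGTG, the E-box found in 6.04% of windows, account for 4 of the 5, since that palindrome holds ACGTG on both strands. The GC box GGGCGG, which was in 33% of all windows, occurred 4 times before Pfkp, with 1 of these overlapping a GCGTG, 2 times each before Gpi1 and Ldha and 1 time before Pkm. None of these motifs was present in all 7 windows. For Ldha the RefSeq table gives 2 starts, and the window (chr7:46845554-46845803) lies inside the gene interval given below. Most of the window of Pkm and a few bases of that of Pfkp also lie inside their gene intervals. These data do not show which start of Ldha was used. GC content was 66.4% in the window of Pkm, 62.8% in that of Pfkp, 55.6% in that of Eno1 and 49.6% in that of Hk1, beside a median of 52.0% over all windows. A match is a run of letters and was not tested as a binding site.

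Hexokinase 1 opens the pathway. Hk1 (ENSMUSG00000037012, GRCm38 chromosome 10, 62268855 to 62379908, minus strand) had 3499 and 3485 normalised reads in controls 1 and 2 and 4840 and 4725 in cKO 1 and cKO 2. The genotypes did not overlap, and the libraries within a genotype lay within 1.024-fold of each other. The means were 3492 ± 9.9 and 4783 ± 81.4 (SD, n = 2), or 0.45 on the log2 scale (SE 0.04, limma adjusted p 4.74e-10). After GC adjustment the log2 fold change was 0.14 (limma adjusted p 0.00349), falling to 0.07 (limma adjusted p 0.205) with the GC content of the longest coding transcript in place of that of all transcripts. With GC content and the deposited gene length both adjusted for it was 0.37 (limma adjusted p 2.63e-08), close to the unadjusted value. An antisense gene, Hk1os, lies within Hk1 and shared 1.64% of the 50-base words of its coding transcripts, and the strand setting of the authors' counting is not given in the sources used here.

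Glucose phosphate isomerase turns glucose 6-phosphate into fructose 6-phosphate. Gpi1 (chromosome 7, 34201330 to 34230336, minus strand) had 7716 and 7839 normalised reads in the controls against 9912 and 9349 in the cKO libraries. Both cKO values were above the controls and cKO 1 was the higher of them. The means were 7777 ± 86.6 and 9631 ± 398.2 (SD, n = 2), or 0.31 on the log2 scale (SE 0.04, limma adjusted p 6.7e-08). After GC adjustment Gpi1 was at -0.02 and did not pass, but with length also adjusted for it was at 0.12 and passed (limma adjusted p 0.00376). Of its 50-base words 24.5% occur in transcripts of other genes, most of them in the processed pseudogene Gm1840. A lincRNA gene, Gm26762, overlaps Gpi1 on the other strand.

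Phosphofructokinase catalyses the committing step. Pfkp (ENSMUSG00000021196, chromosome 13, 6579768 to 6648777, minus strand) encodes the platelet type of the enzyme, which is also made in brain. It had 3726 and 3870 normalised reads in the controls against 6466 and 6279 in cKO 1 and cKO 2. The lower cKO value was 1.62-fold above the higher control value. The means were 3798 ± 101.7 and 6373 ± 131.8 (SD, n = 2), or 0.75 on the log2 scale (SE 0.04, limma adjusted p 3.06e-14). Among the 7 members Pfkp alone had a log2 fold change that did not shrink after GC adjustment (0.83) or after adjustment for GC content and the deposited gene length (1.09). Its transcripts had 48.9% GC, the lowest share among the 7, where the median log2 fold change of listed genes was -0.20 (707 genes with 48 to 50% GC). Its 3′ end overlaps that of Pitrm1 on the other strand, so that 15.4% of its 50-base words occur in Pitrm1 transcripts too. Reads of the pair from there cannot be told apart without strand, and Pitrm1 was not analysed here.

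Phosphoglycerate mutase moves the phosphate group that enolase then prepares for transfer. Pgam1 (chromosome 19, 41911871 to 41918664, plus strand) had 7672 and 7829 normalised reads in the controls against 9759 and 9001 in the cKO libraries. The cKO libraries lay 1.084-fold apart, the widest spread within a genotype among the 7 members, and both still exceeded the controls. The means were 7751 ± 111.3 and 9380 ± 535.5 (SD, n = 2), or 0.27 on the log2 scale (SE 0.04, limma adjusted p 1.01e-06). This became -0.03 after GC adjustment and -0.14 (limma adjusted p 0.00241) after adjustment for GC content and length. Of its 50-base words 41.5% also occur in Pgam1-ps2, a processed pseudogene, so its count is uncertain by the reads that the authors' counting may have split.

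Enolase forms phosphoenolpyruvate. Eno1 (ENSMUSG00000063524, chromosome 4, 150236721 to 150248879, plus strand) had 13390 and 13478 normalised reads in the controls against 18374 and 17039 in cKO 1 and cKO 2. The means were 13434 ± 62.1 and 17707 ± 943.4 (SD, n = 2), or 0.40 on the log2 scale (SE 0.03, limma adjusted p 4.38e-10). The cKO pair was well above the control pair, with cKO 1 the highest. After GC adjustment Eno1 missed the threshold (0.06 on the log2 scale, limma adjusted p 0.244), and with length also adjusted for it passed (0.14, limma adjusted p 0.000647). Eno1b, a near copy of the gene on chromosome 18, shares 48.4% of the 50-base words of Eno1, and its values were looked up after those of Eno1 were seen. Eno1b went the other way, from 1809 and 1840 normalised reads in the controls to 1485 and 1348 in the cKO (-0.37 on the log2 scale, SE 0.06, limma adjusted p 4.27e-06). How reads were shared between the copies is not given, so both values are uncertain.

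Pyruvate kinase ends the pathway with the release of ATP and pyruvate. Pkm (ENSMUSG00000032294, chromosome 9, 59656368 to 59679375, plus strand) gives rise to the M1 and M2 forms of the enzyme by alternative splicing, and counts per gene do not separate them. It had 18507 and 18154 normalised reads in the controls against 23545 and 23288 in the cKO libraries, the highest counts of the 7. The means were 18331 ± 249.5 and 23417 ± 181.9 (SD, n = 2), or 0.35 on the log2 scale (SE 0.03, limma adjusted p 2.5e-10). The log2 fold change was -0.00 after GC adjustment (limma adjusted p 1) and 0.06 after adjustment for GC content and length (limma adjusted p 0.109), passing neither time. Of its 50-base words 23.7% occur elsewhere, 15.6% in the processed pseudogene Gm6560. Another annotated gene, Gm49759, overlaps Pkm on the same strand.

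Lactate dehydrogenase A is the subunit that predominates in cells that release lactate. Ldha (chromosome 7, 46841475 to 46855627, plus strand) had 12567 and 12577 normalised reads in the controls against 13873 and 13724 in cKO 1 and cKO 2. The genotypes did not overlap, although the lower cKO value was 1.09-fold above the higher control value. The means were 12572 ± 7.0 and 13799 ± 105.3 (SD, n = 2), or 0.13 on the log2 scale (SE 0.03, limma adjusted p 0.00069), the smallest change of the 7. It turned to -0.04 after GC adjustment and to -0.12 (limma adjusted p 0.000912) after adjustment for GC content and length. Transcripts of other genes held 10.4% of the 50-base words of Ldha, with 3.87% in the processed pseudogene Gm5452.

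Levels between genes can be compared only per length. Per kilobase of the longest coding transcript, control levels fell in the order Pkm (7537 normalised reads), Ldha (6927), Eno1 (6627), Pgam1 (4367), Gpi1 (2697), Pfkp (916.3) and Hk1 (816.3). Among the genes in this order, those of the early steps were thus the lowest and those of the late steps the highest. Other isozymes of the same steps were not part of it. Per kilobase of the deposited gene length Pfkm, the muscle phosphofructokinase, had 2949 normalised reads in the controls. Pfkp had 283.4 on that length and Eno1 had 2497, while Hk3, another hexokinase, was low (22.5). Pfkm was not measured per kilobase of its longest coding transcript, so its place in the order above is not known. The order is one of these genes and was not shown for the pathway steps. In the cKO the order was Pkm (9629), Eno1 (8735), Ldha (7603), Pgam1 (5285), Gpi1 (3339), Pfkp (1537) and Hk1 (1118), so that Eno1 and Ldha changed places. On the gene length in the deposited table, which is 3310 bases for Ldha and 13401 for Pfkp, the order of the controls was Pgam1, Ldha, Pkm, Eno1, Gpi1, Hk1 and Pfkp, so the order among the high genes depends on the length used.

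Of 15 other glycolytic enzymes and isozymes 8 were listed, 7 of them higher and 1 lower in the cKO (median log2 fold change 0.59). Together with the 7 above, 15 of 25 genes were listed (60.0%, beside 40.0% of all genes behind the adjustment), 14 of them higher. After GC adjustment 7 of the 15 were higher and 1 lower, and the median fell from 0.40 to 0.06. The exception was Bpgm, which makes a side product of the pathway, with 3133 and 2966 normalised reads in the controls against 2645 and 2673 in the cKO (-0.20 on the log2 scale, SE 0.04, limma adjusted p 0.00055). Bpgm did not pass with relative log expression factors (log2 fold change -0.01), which raise all log2 fold changes by a median of 0.191. These factors were computed over the listed genes only, which were selected for change and had a median log2 fold change of -0.22. An upward shift is thus built into that setting, and it does not decide whether Bpgm was lower. Hk3, a hexokinase, had the highest log2 fold change, 0.86, at a low level of 82.7 ± 4.7 normalised reads in the controls. Its value was 0.46 after GC adjustment (limma adjusted p 0.0456) and 0.45 with length also adjusted for, where it did not pass (limma adjusted p 0.0582). Eno2, the neuronal enolase, rose from 369 and 439.8 to 709.5 and 693.0 normalised reads, 1.73-fold. Tpi1, triose phosphate isomerase, rose 1.25-fold (log2 fold change 0.32), which was 0.00 after GC adjustment.

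Isozymes that catalyse the same step had different folds. These genes were picked after their values were seen, and their ratios within a library do not depend on the size factor. Ldhb, the heart type subunit of lactate dehydrogenase, went from 6509 and 6588 to 11393 and 10889 normalised reads, a 1.70-fold rise beside 1.10-fold for Ldha. The ratio of Ldhb to Ldha was 0.518 and 0.524 in the controls against 0.821 and 0.793 in cKO 1 and cKO 2. Aldoc, the brain aldolase, rose from 22898 and 23002 to 35637 and 35336 normalised reads, 1.55-fold, whereas Aldoa, the muscle type, rose 1.26-fold. Their ratio was 1.928 and 1.909 in the controls against 2.326 and 2.379 in the cKO. Eno2 over Eno1 was 0.028 and 0.033 in the controls against 0.039 and 0.041 in the cKO. Pfkp over Pfkm, the muscle phosphofructokinase, was 0.381 and 0.390 in the controls against 0.438 and 0.440 in the cKO. In each of these 4 pairs the gene with the higher fold stands on top, so the direction of the ratio was fixed by that choice. The cKO ratios lay above both control ratios in each pair, and the ratios were not tested. After GC adjustment the log2 fold change was 0.52 for Ldhb and -0.04 for Ldha, 0.35 for Aldoc and -0.07 for Aldoa, 0.43 for Eno2 and 0.06 for Eno1, and 0.83 for Pfkp and 0.23 for Pfkm. Aldoc and Eno2 are also used as markers of astrocytes and neurons, and the part of other cells in these ratios was not tested.

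**Figure D2:**
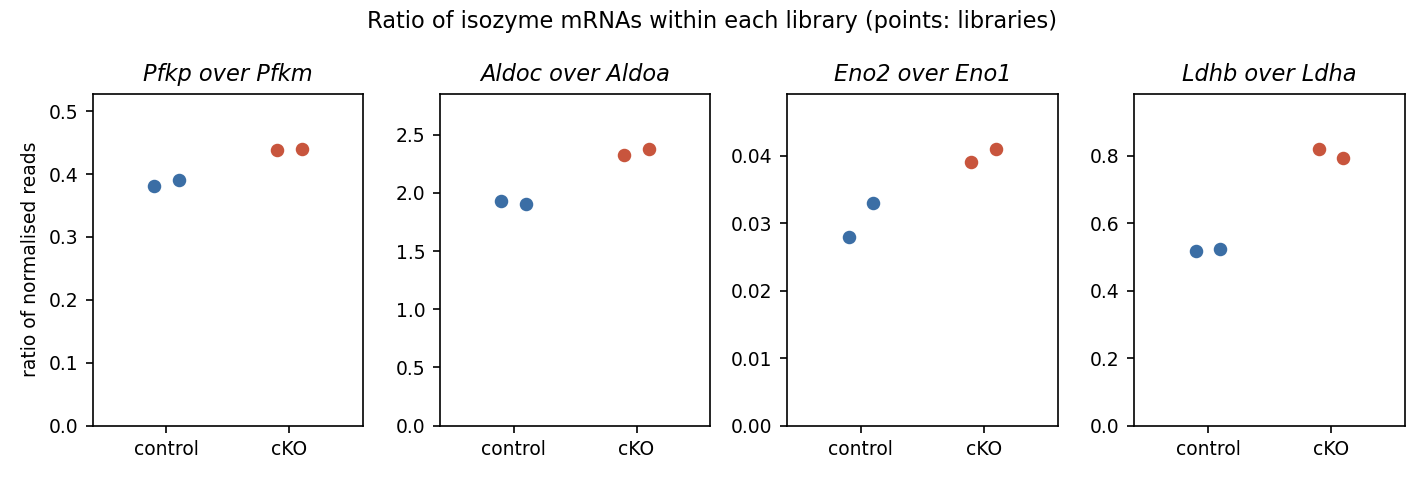
Ratio of normalised reads of paired isozyme genes (vertical axes, from 0) in the control and cKO libraries, 1 point per library. The cKO points lie above the control points in each pair, where the gene with the higher fold was put on top. The ratio of Ldhb to Ldha went from 0.518 and 0.524 to 0.821 and 0.793.

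The GC content of transcripts moved with the change between genotypes over the whole table. Listed genes with 40 to 42% GC had a median log2 fold change of -0.70 (476 genes, 5.5% of them higher), and those with 54 to 56% GC had a median of 0.38 (726 genes, 77.0% higher). The listed genes that were higher had a median GC content of 53.9% and those that were lower 45.7%. Transcripts of Hk1, Gpi1, Pgam1, Eno1 and Pkm had between 53.8% and 55.1% GC, and their log2 fold changes of 0.27 to 0.45 lay near the medians of genes with that content, 0.33 in the bin from 52 to 54% and 0.38 in the bin from 54 to 56%. Ldha (51.8% GC) lay a little below the median of its bin, 0.21. Pfkp lay far above that of its own. The trend was taken over called genes only, and its part in the rises was not tested.

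**Figure D3:**
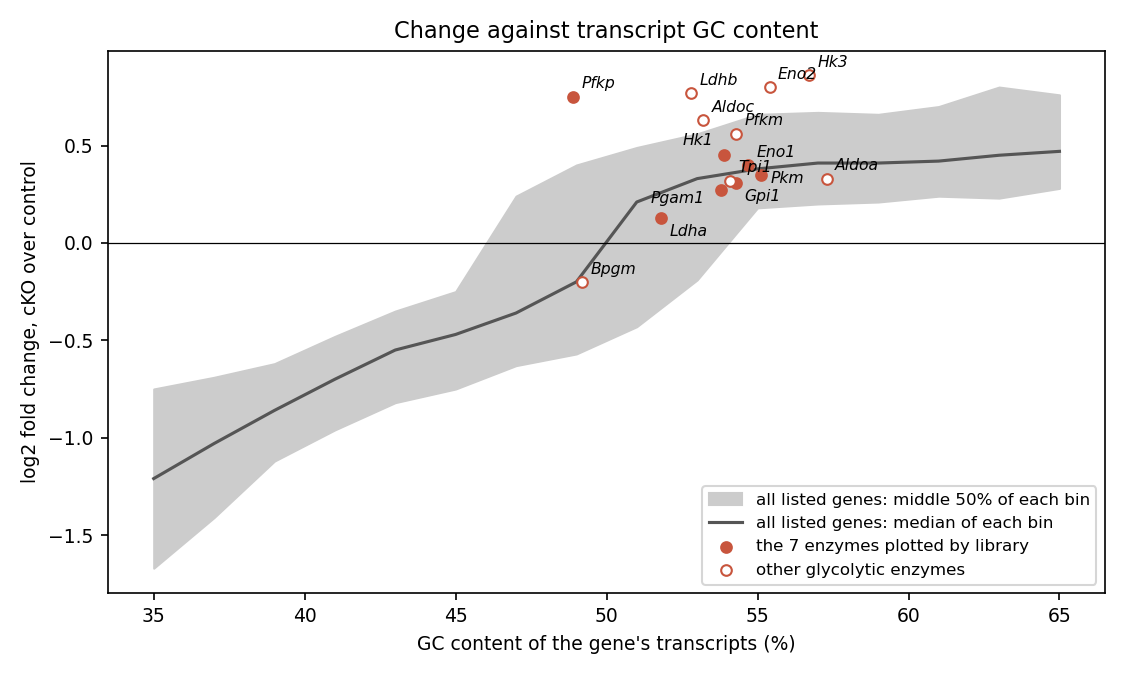
Log2 fold change of cKO over control (vertical axis) against the GC content of a gene's transcripts in percent (horizontal axis). The grey line and band give the median and the interquartile range of all listed genes in bins of 2 percentage points, filled points the 7 enzymes and open points the other listed glycolytic enzymes. Hk1, Gpi1, Pgam1, Eno1 and Pkm lie near the line, and Pfkp (0.75 at 48.9% GC) lies above it.

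**Figure D4:**
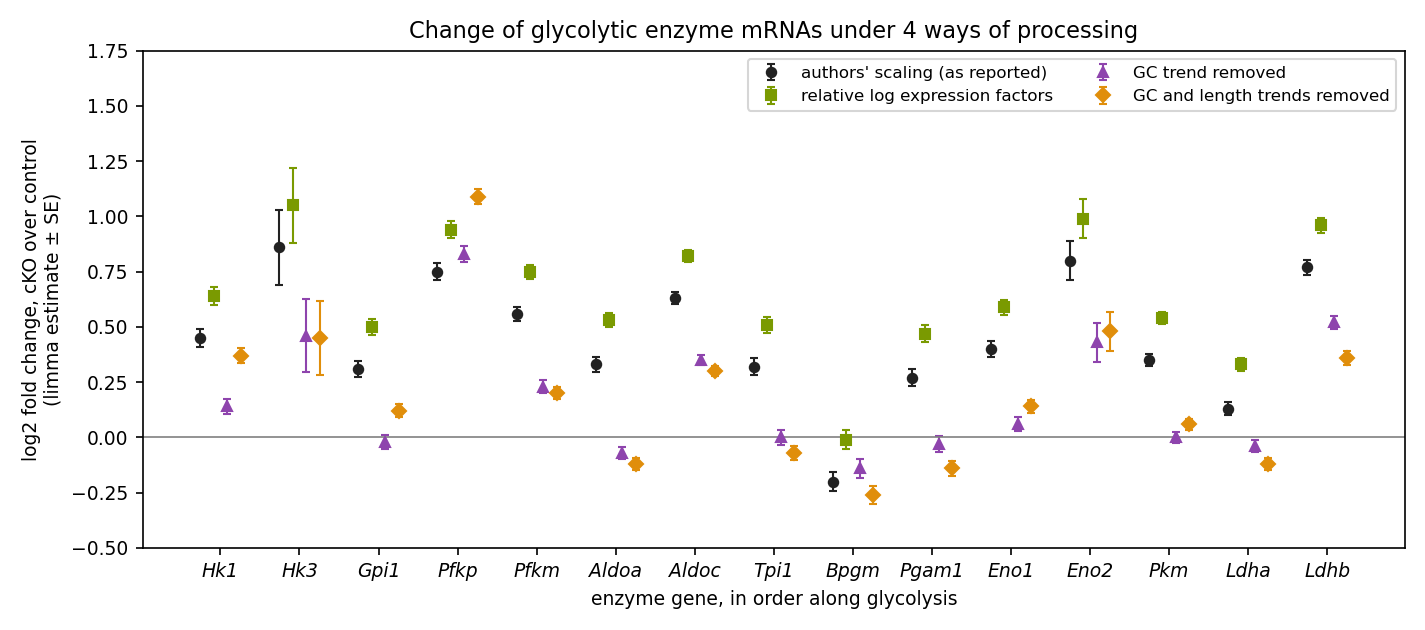
Log2 fold change (limma estimate with SE) of the 15 listed glycolytic enzyme genes, in order along the pathway, under 4 ways of processing. With relative log expression factors 14 of the 15 were higher, and after GC adjustment 7 were, among them Pfkp and Ldhb.

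Regulators of glycolysis split, 8 of 16 being listed with 4 higher and 4 lower. Txnip, which restrains glucose uptake, rose from 1036 and 1008 to 2140 and 2105 normalised reads, 2.08-fold. Pfkfb3, which makes the activator of phosphofructokinase, rose 1.50-fold, and Pfkfb2, a related enzyme, fell 1.54-fold. Pfkfb2 did not pass with GC content and length adjusted for (-0.26, limma adjusted p 0.0639) or with the GC content of the longest coding transcript (-0.22, limma adjusted p 0.129). Hif1a, the oxygen-regulated transcription factor of glycolytic genes, fell 1.57-fold (log2 fold change -0.65), although its log2 fold change was 0.08 after GC adjustment. Of 16 hypoxia response genes 9 were listed, 6 higher and 3 lower. Adm, a vasodilator peptide, rose from 36 and 37.7 to 181.3 and 161.4 normalised reads (2.19 on the log2 scale, SE 0.19, limma adjusted p 7.5e-10), and Car9, a carbonic anhydrase, rose 2.55-fold from a low level of 23.7 ± 2.4. Kdm3a, a histone demethylase, fell 1.69-fold (-0.76 on the log2 scale, -0.34 after GC adjustment), and Ero1l, an oxidase of the endoplasmic reticulum, fell 1.42-fold (0.09 on the log2 scale after GC adjustment).

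Transport genes were listed for 6 of 14, 4 higher and 2 lower. Slc16a7, a monocarboxylate transporter, fell from 468 and 489.7 to 138.8 and 208.8 normalised reads, a 2.75-fold fall (-1.49 on the log2 scale). After GC adjustment it was at -0.71, and Slc2a12 at 0.91. Slc16a1, a monocarboxylate transporter named after its values were seen, had a higher level (6024 ± 39.4 normalised reads in the controls) and rose 1.13-fold. Slc2a13, an inositol transporter of the glucose transporter family, fell 1.48-fold, while Slc2a10 and Slc2a12 rose 1.74-fold and 1.58-fold. Slc2a10 and Slc2a13 did not pass after GC adjustment (log2 fold changes 0.43 and -0.21). The glucose transporter Slc2a1 was not analysed here.

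Branches that leave glycolysis were mostly higher. In the pentose phosphate pathway 8 of 11 genes were listed, 6 higher and 2 lower. Tkt, transketolase, rose 1.37-fold and H6pd 2.06-fold, whereas Taldo1, transaldolase, fell from 12148 and 11813 to 7847 and 7542 normalised reads, 1.56-fold lower, and Rpe fell 1.67-fold. Taldo1 had 53.5% GC and was still lower after GC adjustment (-0.93 on the log2 scale). Tkt and H6pd went from 0.46 and 1.04 to 0.10 and 0.65 and still passed. Rpe did not pass then, and its log2 fold change went from -0.74 to -0.06. A list of serine synthesis and glycerol phosphate genes also held Shmt1, Shmt2, Mdh1, Mdh2, Got1 and Got2. Of its 12 genes 9 were listed and all 9 were higher, Shmt2, Mdh1 and Mdh2 among them. Phgdh, the first enzyme of serine synthesis, rose 1.59-fold and Psph, the last, 1.63-fold, while Psat1 between them rose 1.09-fold. After GC adjustment Phgdh was at 0.29, Psph at 0.48 and Psat1 at 0.32 on the log2 scale. Gpd1l, a glycerol phosphate dehydrogenase, rose 1.09-fold and did not pass without control 1 (limma adjusted p 0.074), without control 2 (0.0846) or after GC adjustment.

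Of 16 genes of gluconeogenesis and glycogen 8 were listed, 6 higher and 2 lower. Pygb, the brain glycogen phosphorylase, rose from 16659 and 17181 to 26566 and 26035 normalised reads, 1.55-fold (0.64 on the log2 scale, 0.31 after GC adjustment). Pygm, the muscle form, rose 2.38-fold from 26 and 44.8 normalised reads. The gene with the symbol Pgm1, on chromosome 5, was lower by log2 fold change (-0.27) but not after GC adjustment (0.09). Pgm2, on chromosome 4 and named after its values were seen, rose 1.53-fold (0.61 on the log2 scale, limma adjusted p 3.93e-11). Phosphoglucomutase genes thus went both ways before GC adjustment.

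Genes of pyruvate entry to mitochondria and of its use there were listed for 5 of 14, 4 higher and 1 lower. The carrier genes Mpc1 and Mpc2 were not analysed here. Pcx, pyruvate carboxylase, rose 1.61-fold and Pdp1, a phosphatase that activates pyruvate dehydrogenase, rose 1.64-fold. Their log2 fold changes of 0.69 and 0.71 became 0.29 and 1.31 after GC adjustment. Pdk2, a kinase that inhibits that enzyme, and Dld, one of its subunits, had log2 fold changes of 0.21 and -0.22, and both turned after GC adjustment (-0.18 and 0.58). In the citrate cycle 15 of 16 were listed, 14 of them higher and 1 lower (median log2 fold change 0.32). Idh2 and Idh3g, isocitrate dehydrogenases, rose 1.77-fold and 1.66-fold (0.45 and 0.62 on the log2 scale after GC adjustment). Sucla2, a subunit of succinyl-CoA synthetase, had a log2 fold change of -0.34, and this too turned after GC adjustment (0.24). All lists beside glycolysis are subject to the same 40.0% background of listed genes.

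**Figure D5:**
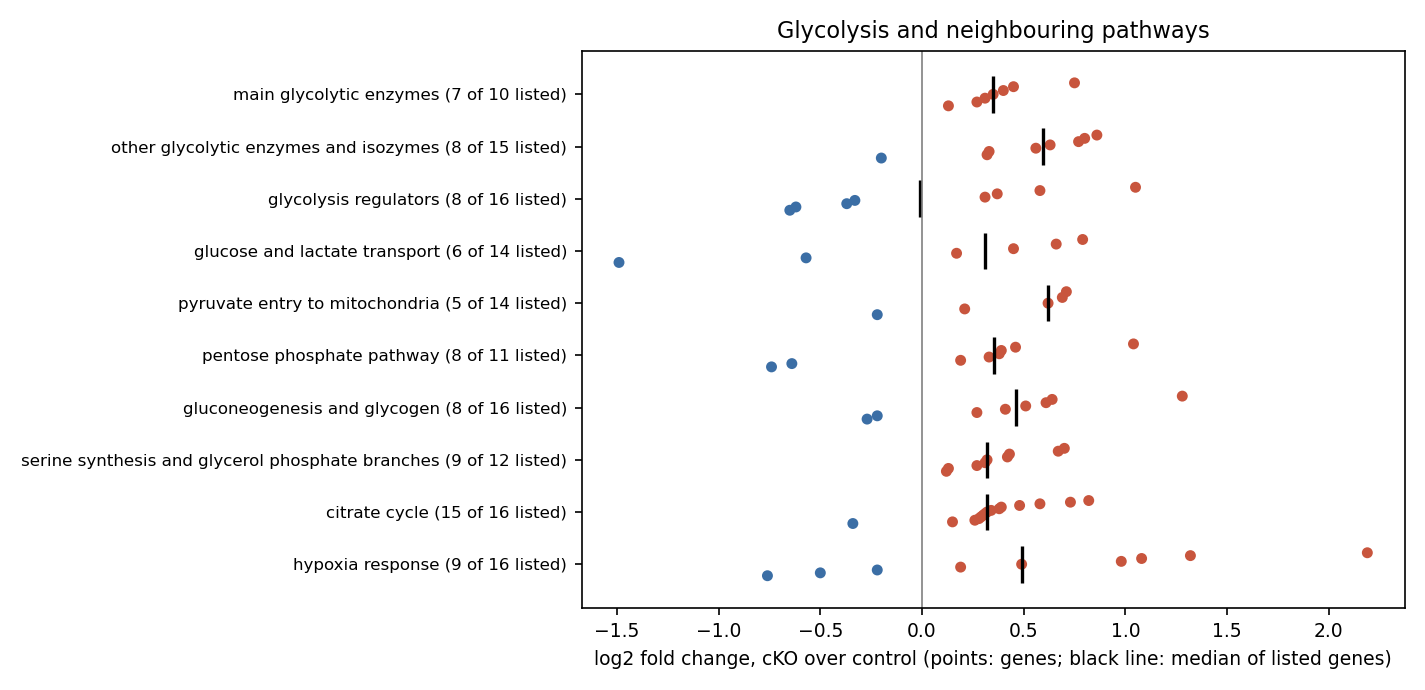
Log2 fold change of cKO over control (horizontal axis) of the listed genes of glycolysis and its neighbouring pathways, 1 point per gene, red above 0 and blue below, with a black line at the median of each list. The 7 main enzymes lie between 0.13 and 0.75, and the regulators lie on both sides of 0 with a median of -0.01.

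Markers of pericytes and fibroblasts, microglia and most astrocyte markers were higher in the cKO. So were 7 of the 9 listed neuron markers and 2 of the 3 listed endothelial markers. The summed level of neuron markers was nonetheless 0.94-fold and that of endothelial markers 1.10-fold of the controls. Map2 and Kdr, the most abundant of these 2 lists, both fell. In bulk RNA, fewer cells of a type and less RNA per cell cannot be told apart. Of 10 astrocyte markers 9 were listed, 7 higher and 2 lower, and their summed level went from 485947 and 486609 to 732682 and 726048 normalised reads, 1.50-fold more. The lower ones, named after their values were seen, were S100b (3.09-fold) and Aqp4 (1.12-fold). Gfap, the astrocyte filament gene, made up most of this sum, with 351481 and 352111 in the controls against 557247 and 553584 in the cKO. Of 10 pericyte and fibroblast markers 8 were listed, all higher, and their sum went from 3962 and 3778 to 12234 and 11796. Microglia markers were listed for 4 of 10, all higher (sums of 1322 and 1298, and of 2009 and 2109), and neuron markers for 9 of 10, of which 7 rose and 2 fell, with sums of 18585 and 18901, and of 17665 and 17482. Of 8 endothelial markers 3 were listed, 2 higher and 1 lower, with sums of 187 to 229 in all libraries. In the lineage list 8 of 9 markers were listed, 7 lower and 1 higher, and the sum of the 12 myelin markers, all lower, fell from 407846 and 409968 to 89911 and 93074. The most abundant marker of each other list was Mbp for myelin (7.57-fold lower), Ptprz1 for the lineage (1.11-fold higher), C1qc for microglia (1.40-fold higher), Col3a1 for pericytes and fibroblasts (3.18-fold higher), Kdr for endothelium (1.91-fold lower) and Map2 for neurons (1.43-fold lower). After adjustment for GC content and length Map2 turned to 0.16 and C1qc to -0.00 on the log2 scale. No listed marker was at 0 in any library. The part of these cells in the levels of the enzymes was not tested.

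Many listed genes had a pattern like that of the enzymes. By the distance between log2 profiles over the 4 libraries, each centred on its mean, the genes nearest to Hk1 were Furin, Slc19a2 and Cdc34 (distances 0.010, 0.013 and 0.016). Those nearest to Pfkp were Cybrd1, Sfxn5 and Hspb6 (0.028, 0.029 and 0.030), those nearest to Eno1 were Pebp1, Tcn2 and Vasn, and those nearest to Pkm were Rsu1, Xrcc5 and Mydgf. Ldha lay nearest to Rps15a, Cyfip1 and Eef1g, Gpi1 to Cdkn2c, Gpr137 and Mrpl9, and Pgam1 to Psmb4, Tmem132b and Tmem229b. None of the 7 enzymes was among the nearest genes of another. Within 0.05 of the log2 fold change of Eno1 there were 522 other listed genes, and there were 218 for Pfkp, so 4 libraries in 2 groups separate such patterns little.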

How the data were processed

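RNA of 4 libraries was measured, 2 control and 2 cKO, grouped by genotype from the labels. Per the file headers, the authors deposited 1 table with a signal per gene and library, a log2 fold change, a p-value and an adjusted p-value, and a gene length. The signal is a read count divided by 1 size factor per library. The submitters' processing notes name DESeq2 and the builds mm10 and GRCm38; aligner, counter, strand and annotation release are not given in the sources used here. The table holds 0 columns of other samples. A single read corresponds to 1.0 and 1.0181 signal units in the control libraries and to 0.8165 and 1.1866 in the cKO libraries, and within 0.01 read 100% of values were whole. Replicates differed by more than sampling noise alone (median chi-square per gene 0.87 between controls and 1.13 between cKO libraries, where noise gives 0.455), so no library was treated as a second copy of another. Whether they are separate cultures or animals is not given in the sources used here.

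Genotypes were compared over all 6940 genes with limma 3.58.1 in R 4.3.3 on log2(value + 1), with a variance trend, 2 residual degrees of freedom and a filter of at least 1 in 2 libraries, which all genes passed. Fold changes are on that scale, and folds are ratios of mean normalised reads. Benjamini-Hochberg adjustment took 17347 as the number of genes, and an adjusted p under 0.05 was a call. Because the table was selected for change, the spread that limma pools over genes may be biased low, and its p-values with it. Alternatives used edgeR 4.0.16 and DESeq2 1.42.0 on recovered reads, other factors, pseudocounts and filters, a replicate term, each library left out, and removal of loess trends with GC content (GENCODE M21 transcripts, 99.9% of genes matched) and deposited gene length, each keeping the median of the trend (0.01 for GC content, as a log2 fold change). The limma step was tested on simulated data in which few genes changed and no trend with GC content was present. The listed genes differ in both respects, so that test does not bear on the calls given here.

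Members, lists and tests were chosen with earlier results of these data known. Named were all 7 members, in each other pathway list every listed gene where 4 or fewer were listed and otherwise the 2 highest and 2 lowest by log2 fold change, in each marker list the most abundant gene, and for each member the 3 genes with the nearest profile. Some genes that this rule names are not reported here.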

Additional observations from a re-analysis of the deposited data

How the results depend on the processing

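All 7 enzymes stayed higher and passed with edgeR (authors' scaling or TMM), DESeq2, relative log expression factors and other pseudocounts and filters. They also passed with adjustment over listed genes only and with the replicate block. Of all listed genes 3244 were called higher with edgeR under either scaling and 3237 with DESeq2, against 3244 in the main setting. The genes were listed because they had been called in these libraries, so such passes do not test the rises. Without any 1 library the log2 fold changes of the 7 stayed positive (Ldha 0.13 to 0.14, Pgam1 0.22 to 0.33). After GC adjustment 2 of 7 were called higher, with GC content and length removed 4 higher (Hk1, Pfkp, Gpi1 and Eno1) and 2 lower (Pgam1 and Ldha), with the replicate block and the GC trend removed together 2, and with the GC content of the longest coding transcript, chosen after seeing the data, 1 (Pfkp). Reversed log2 fold changes with the GC trend removed, the same with the block added, were -0.02 for Gpi1, -0.03 for Pgam1, -0.00 for Pkm, -0.04 for Ldha, -0.07 for Aldoa, 0.08 for Hif1a, 0.58 for Dld, -0.18 for Pdk2, 0.09 for Pgm1, 0.24 for Sucla2 and 0.09 for Ero1l. With length removed as well they were -0.14 for Pgam1, -0.12 for Ldha, -0.12 for Aldoa, -0.07 for Tpi1, 0.06 for Hif1a, 0.46 for Dld, -0.22 for Pdk2, 0.12 for Sucla2, 0.05 for Ero1l, 0.16 for Map2 and -0.00 for C1qc. With the longest coding transcript they were -0.00 for Eno1, -0.05 for Pkm, -0.02 for Ldha, -0.06 for Aldoa, 0.02 for Hif1a, 0.49 for Dld, -0.18 for Pdk2, 0.06 for Rpe, 0.01 for Pgm1, 0.21 for Sucla2 and 0.14 for Ero1l. The cause was not tested. Of the neighbouring lists 16 genes were lower, against 10 with relative log expression factors and 8 with the GC trend removed, with the block added or with the longest transcript. Of all listed genes 3696 were lower, against 2325 with the GC trend removed, 2376 with length as well, 2303 with the block added and 2338 with the longest transcript. Replicate numbers are shared between genotypes, and the deviations of same-numbered libraries had a correlation of 0.013. That value does not show whether same-numbered libraries share a litter, a day or a preparation. With the replicate block 7 enzymes stayed higher, and 3242 listed genes were higher against 3244 without it. With 2 libraries per genotype, small folds rest on a spread that may be technical.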
